A study of Saccharomyces cerevisiae with 8 samples.

Results

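Inside the coding regions of 3 genes for cytosolic Hsp70 chaperones, SSA1, SSA2 and SSB1, the lists of Gcr1 binding peaks held 16 of their 1064 entries. A peak was taken where its centre lay in the coding region of one of these genes, or between 1000 bp upstream and 200 bp downstream of the start codon. The 16 entries mark 7 separate places. Gcr1(U) had a peak at all 7 of them at 6 h and again at 12 h, and Gcr1(S) had 1 at each time, near the start of SSA1. Presence in a list and position are what the peaks were chosen on, so both are given as a description with no test.

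The peaks come from chromatin immunoprecipitation sequencing (ChIP-seq) of 8 samples of budding yeast, Saccharomyces cerevisiae, 2 replicates in each of 4 groups. Gcr1(U) and Gcr1(S) are the forms of Gcr1 that differ by how the intron of its transcript is processed. They were studied in strains JHY9311 (BY4741 GCR1U-TAP::his3MX6 GCR2-5Flag::hphMX6) and JHY9321 (BY4741 GCR1S-TAP::his3MX6 GCR2-5Flag::hphMX6). All groups therefore carried a TAP tag on Gcr1, by which chromatin was pulled down on IgG-sepharose, and a 5Flag tag on Gcr2, a partner of Gcr1. Each form rests on 1 named strain. Cultures started at an OD600 of 0.5 in YPD with 2% glucose at 30 °C, and per the labels they stood in exponential phase at 6 h and past the diauxic shift at 12 h. Untagged and input libraries were not analysed here, and the share of the signal that would be there without the tag was not measured.

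Hsp70 chaperones bind short unfolded stretches of other proteins and release them in a cycle driven by ATP. The Ssa proteins serve protein folding, transport across membranes and recovery from heat in the cytosol, and the Ssb proteins sit on ribosomes and hold chains as they are made. SSA1 and SSA2 are abundant in growing cells, while their relatives SSA3 and SSA4 are induced by stress. Gcr1 is best known as an activator of glycolytic genes, acting with Rap1 and Gcr2 at their promoters.

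Each group is represented by a single deposited list of peaks, and no level below has a replicate error. Levels are normalized tags, the reads of a peak window scaled to the size of the library. The ranges in brackets after ratios are 95% intervals for counting error, and they compare lists, not replicated conditions. The 16 windows held between 121.5 and 458 tags each, as derived from the even steps in the deposited values. Some of these derived tags are not whole numbers, so they need not be whole reads, and the reason was not tested. The intervals take the derived tags as independent counts, an assumption that was not tested either. SSA1 and SSA2 are near copies of each other, as are SSB1 and SSB2. The sources used here do not say how reads matching more than 1 copy were placed, so the split of reads within each pair is uncertain.

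Near the start codon, all 3 genes had a peak of Gcr1(U) at almost the same distance. On SSA1 (YAL005C, chromosome I 139503 to 141431, bottom strand, sacCer3) the peak at 6 h spanned I 141206 to 141388, with its centre 134 bp inside the coding region. On SSA2 (YLL024C, chromosome XII 95566 to 97485, bottom strand) it spanned XII 97251 to 97433, with its centre at 143 bp. On SSB1 (YDL229W, chromosome IV 44065 to 45906, top strand) it spanned IV 44095 to 44277, with its centre at 121 bp. These start sites lie in sequence that encodes the nucleotide-binding domain of the chaperone. Over all lists the 8 start peaks had centres from 83 bp to 176 bp, that is from 4.30% to 9.12% of the coding length. Both extremes were the peaks of Gcr1(S) on SSA1, at 83 bp at 6 h and 176 bp at 12 h.

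**Figure D1:**
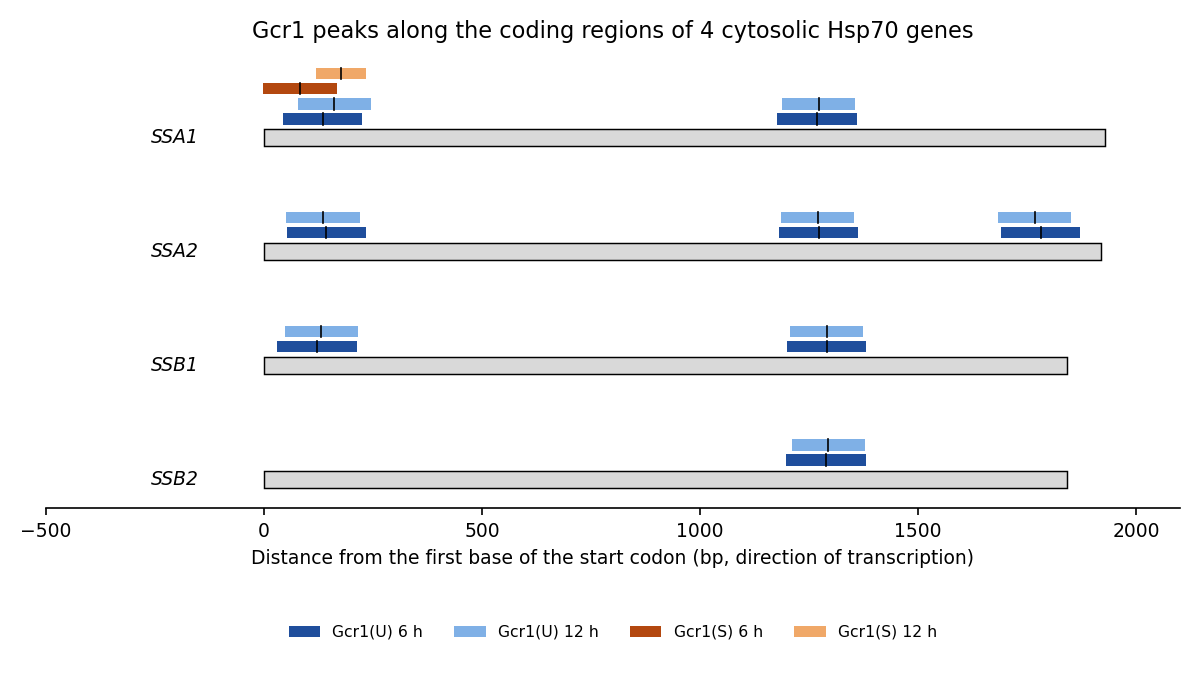
Windows of the peaks (coloured bars, 1 colour per list) with their centres (black ticks) along the coding regions of SSA1, SSA2, SSB1 and SSB2 (grey bars), by distance in bp from the start codon. Start peaks lie between 83 bp and 176 bp and middle peaks between 1268 bp and 1294 bp, and SSA2 has one more peak near its end.

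A second site, in the sequence for the substrate-binding domain, also recurred at one distance. Gcr1(U) had a peak centred at 1268 bp on SSA1 (I 140072 to 140254), at 1272 bp on SSA2 (XII 96122 to 96304) and at 1290 bp on SSB1 (IV 45264 to 45446) at 6 h. At 12 h the centres stood at 1272 bp, 1270 bp and 1290 bp. The centre therefore fell on codons 423 to 425 in SSA1 and SSA2 and on codon 431 in SSB1. SSB2 (YNL209W, chromosome XIV 252059 to 253900, top strand), the near copy of SSB1, had a peak at the matching place, at 1289 bp at 6 h and 1294 bp at 12 h. SSB2 had no start peak in any list.

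SSA2 alone among the 4 genes had a peak near the end of its coding region. It spanned XII 95613 to 95795 at 6 h, and its centre lay 138 bp from the end of the coding region, at 92.8% of its length. At 12 h the centre lay 152 bp from that end. With this peak SSA2 had 3 peaks in 1 coding region. SSA1 and SSB1 had 2 each.

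The centre of every one of the 16 peaks lay inside a coding region, and none lay upstream of a start codon. For 15 of the 16 the whole window lay inside too, and the window of Gcr1(S) on SSA1 at 6 h reached 2 bp past the start codon. The SSA1 start peaks were also between 826 bp and 919 bp upstream of EFB1, a translation elongation factor gene read the other way, so by distance alone they could be counted for either gene. The nearest tRNA gene lay 905 bp or more from every centre. No other listed peak came near: the closest centre outside the ranges was 25473 bp beyond that of SSA1, inside ATS1, with 1137 normalized tags in Gcr1(S) at 6 h. For SSA2 the closest lay 69460 bp away and for SSB1 26387 bp away.

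The peaks were weak to moderate for their lists. At the SSA1 start site Gcr1(U) had 305 normalized tags at 6 h and 179.9 at 12 h, and Gcr1(S) 199.7 and 208.8 at these times. It ranked 132 of 299, 185 of 299, 221 of 233 and 173 of 233 by tags in those lists. It was the highest of the 7 places in Gcr1(U) at 6 h, and the SSA2 end site was the highest at 12 h.

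The remaining places had values for Gcr1(U). Its tags at the SSA1 middle site were 181.2 at 6 h and 103.7 at 12 h. The SSA2 start site had 191.2 and 220.8, its middle site 104.2 and 115.7, and its end site 216.8 and 235.6, in the same order. The SSB1 start site had 140.5 and 203.2 and the SSB1 middle site 106.9 and 169.3. Of the 16 entries 15 lay below the median tags of their own list (at 6 h and 12 h, 288.4 and 287.8 for Gcr1(U), then 428.3 and 250.0 for Gcr1(S)), the exception being the SSA1 start site in Gcr1(U) at 6 h. Their fold over the local background, a value of the authors' peak caller, ran from 2.37 to 3.96, and 11 of the 16 lay above the median of their list, which was 2.67 and 3.10 for Gcr1(U), then 3.02 and 2.74 for Gcr1(S). The lowest fold of each list was 2 or 2.01, and the highest ran from 217.06 to 1035.76. In size the 16 thus lay far below the highest folds, though by rank 11 of them were above the median. The highest of the peak caller's deposited p-values against the local background among the 16 was 1.97e-25. These p-values belong to peaks that the caller had listed, so they are no separate test.

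**Figure D2:**
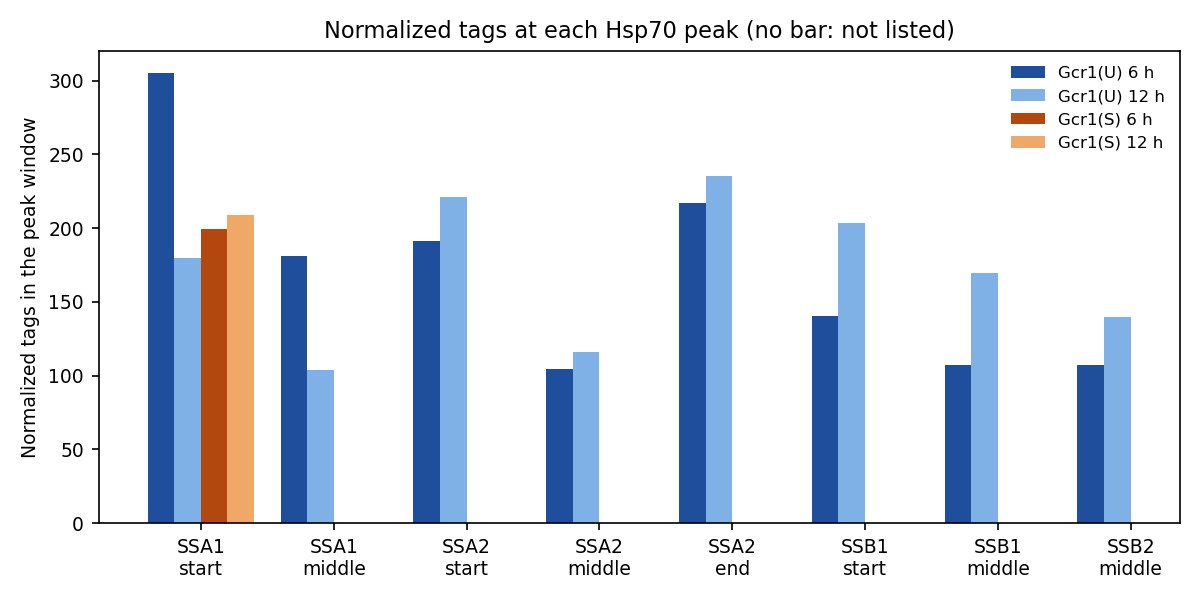
Normalized tags in the window of each peak (vertical axis) for the 7 places on SSA1, SSA2 and SSB1 and the middle site of SSB2, with 1 bar per list and no bar where a list has no peak. The bars of Gcr1(U) fall from 6 h to 12 h at both SSA1 places and stand higher at 12 h at the others, and Gcr1(S) has bars at the SSA1 start site.

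Within a gene the middle site had fewer tags than the start site. In Gcr1(U) at 6 h the middle site of SSA1 had 0.594 times the tags of its start site (0.509 to 0.692), and at 12 h 0.576 times (0.467 to 0.709). In SSA2 the ratio was 0.545 (0.444 to 0.663) at 6 h and 0.524 (0.431 to 0.635) at 12 h. In SSB1 it was 0.761 (0.618 to 0.941) and 0.833 (0.699 to 0.993). These ratios compare windows of one width in one list, so library size plays no part in them. The end site of SSA2 had 2.08 times the tags of its middle site at 6 h (1.72 to 2.55) and 2.04 times at 12 h (1.68 to 2.47).

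The middle sites of SSA1 and SSA2 had focus ratios near 1. The focus ratio, a fraction that the authors' peak caller gives for the share of a peak's reads that lie on the proper side of its centre for their strand, had a median of 0.663 in Gcr1(U) at 6 h and 0.692 at 12 h. It was 0.995 on the SSA1 middle site at 6 h and 0.990 at 12 h, and 0.994 on that of SSA2 at both times. Of 299 peaks 7 reached 0.99 at 6 h and 6 did so at 12 h, and the middle sites of SSA1 and SSA2 were among them at each time. The others were a peak in the overlapping Ty element genes YBR012W-B and YBR012W-A, and peaks within 10 kb of a chromosome end. The middle sites of SSB1 (0.818 and 0.869) and SSB2 (0.812 and 0.869) lay lower but still above the median. The start peaks ran from 0.600 to 0.731 over all lists. The focus ratio played no part in the choice of the peaks. SSA1 and SSA2 are near copies and Ty elements and chromosome ends hold repeats. The part that the placing of such reads had in these values was not tested.

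**Figure D3:**
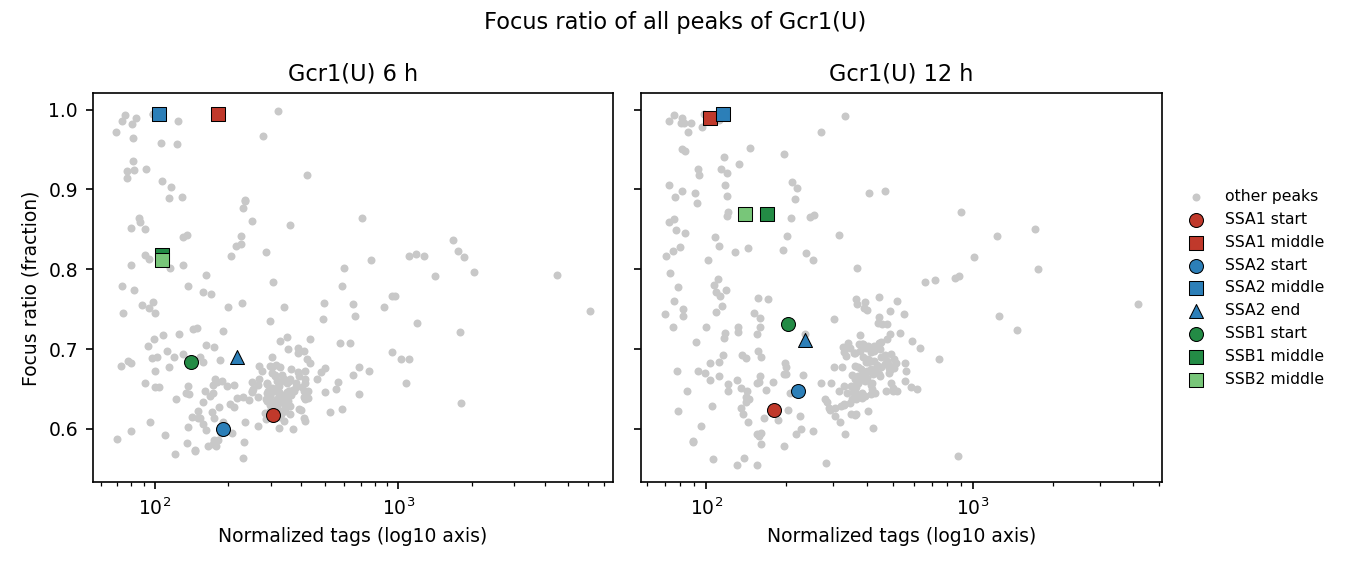
Focus ratio (vertical axis, a fraction) against normalized tags (horizontal axis, log10 scale) for all 299 peaks of Gcr1(U) at 6 h and at 12 h, with the Hsp70 peaks in colour. The middle sites of SSA1 and SSA2 lie between 0.990 and 0.995, and the start sites of SSA1, SSA2 and SSB1 between 0.600 and 0.731.

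Sharing between the forms came down to the SSA1 start site. Its windows in Gcr1(U) and Gcr1(S) overlapped by 126 bp at 6 h, with centres 51 bp apart, and by 115 bp at 12 h, with centres 15 bp apart. The other 6 places had no peak in Gcr1(S). At 6 h, 3 of these 6 had values in Gcr1(U) above 161.1, the lowest nuclear value listed for Gcr1(S), namely the SSA1 middle, SSA2 start and SSA2 end sites. The SSA2 middle site and both SSB1 sites lay under it. At 12 h the lowest nuclear value of Gcr1(S) was 169.3, and the SSA2 start, SSA2 end and SSB1 start sites lay above it.

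A missing entry at this level was common. Of the 77 nuclear peaks of Gcr1(U) at 6 h with values above 161.1 and up to the 305 of the SSA1 start site, 38 were listed in Gcr1(S). At 12 h it was 11 of 23 between 169.3 and the 235.6 of the SSA2 end site. Of the 83 and 99 nuclear peaks at or under the limit, 0 were listed in Gcr1(S) at either time. The lists hold no value for Gcr1(S) at these 6 places, so the size of any difference between the forms there cannot be given.

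From 6 h to 12 h the genes went different ways in Gcr1(U) by normalized tags. Both places on SSA1 lost tags, to 0.590 times (0.504 to 0.689) at the start site and to 0.572 times (0.465 to 0.702) at the middle site. Both places on SSB1 gained, to 1.45 times (1.21 to 1.73) at the start site and to 1.58 times (1.29 to 1.94) at the middle site. The SSB2 middle site, with 107.2 and 140.0 tags, had a ratio of 1.31 (1.05 to 1.61). The ratios at the 3 places on SSA2 were 1.15 (0.981 to 1.36), 1.11 (0.889 to 1.40) and 1.09 (0.929 to 1.27) from start to end, each with an interval that spans 1.

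The counting interval lay below 1 at the 2 places on SSA1, beside 21.7% of all peaks, and above 1 at the 2 places on SSB1, beside 33.1%. With a call set at 1.5-fold, 2 of the 7 places were lower at 12 h, both on SSA1, beside 12% of all 299 peaks and 4.84% of the 62 peaks in gene bodies. Gene body peaks are here those of the nuclear chromosomes centred in a protein-coding region, over 500 bp from a tRNA gene and over 10 kb from a chromosome end. The SSB1 middle site was the 1 place past 1.5-fold higher, beside 2.68% of all peaks and 4.84% of gene body peaks. Ordered by ratio, the SSA1 places were the second and the third lowest of the 62 gene body peaks, and the SSB1 places were numbers 59 and 60 from the lowest. The median ratio was 0.967 over the 55 other gene body peaks, 1.03 over all peaks and 1.26 over the 98 peaks at tRNA genes. Fold over local background gave other sizes. Its ratio was 0.883 at the SSA1 start site, 1.17 at the SSA1 middle site and 1.13 at the SSB1 middle site, none of them past 1.5-fold, and the SSA1 middle site turned. Per bp of window both places on SSB1 passed 1.5-fold, at 1.57 and 1.72.

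**Figure D4:**
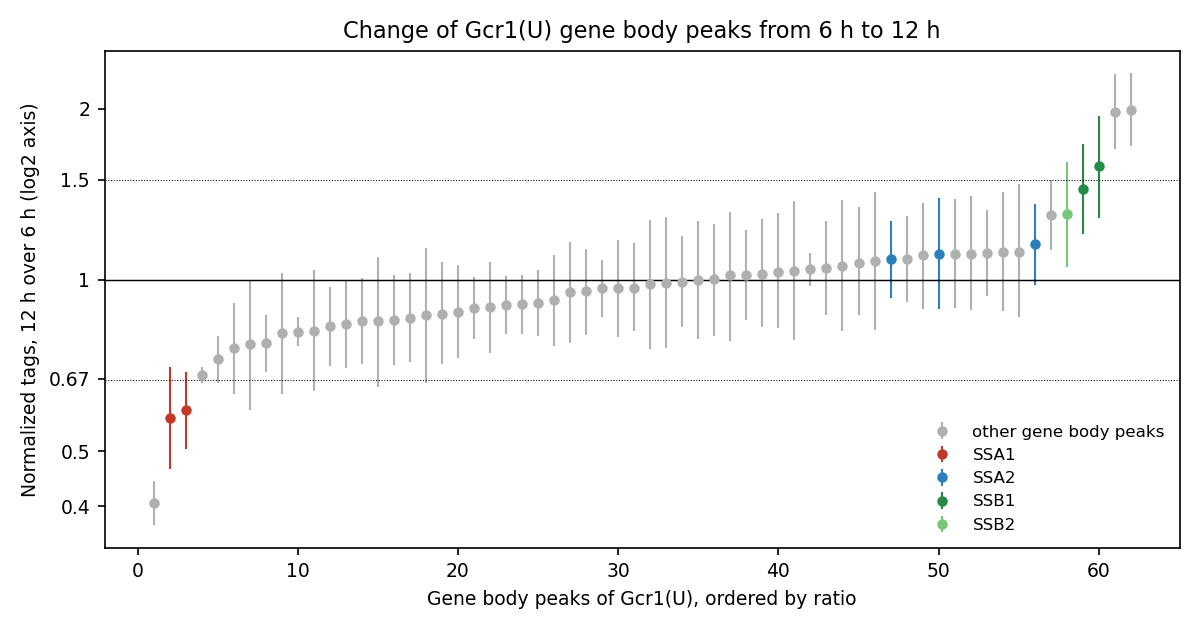
Ratio of normalized tags at 12 h to those at 6 h (vertical axis, log2 scale) for the 62 gene body peaks of Gcr1(U), in rising order, with 95% counting intervals as bars and dotted lines at 1.5-fold either way. The SSA1 places (0.572 and 0.590) lie near the low end, the SSB1 places (1.45 and 1.58) near the high end, and the SSA2 places (1.09 to 1.15) between them.

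Because each list is scaled as a whole, the ratio of one gene to another within a list does not depend on library size. These pairs of genes were chosen after their values were seen. At the start site SSA1 had 1.60 times the tags of SSA2 at 6 h (1.37 to 1.86) and 0.815 times at 12 h (0.688 to 0.964). At the middle site it had 1.74 times at 6 h (1.43 to 2.14) and 0.896 times at 12 h (0.713 to 1.13). The order of the near copies thus turned at the start site by the listed tags, while at the middle site the interval at 12 h spans 1. How reads matching both copies were split between them is uncertain, and the intervals do not cover it. The quotient of the later to the earlier ratio was 0.511 (0.407 to 0.641) at the start site and 0.515 (0.378 to 0.700) at the middle site, and each quotient lies inside the interval of the other. In fold over local background, SSA1 went from 2.81 to 2.48 and SSA2 from 2.46 to 2.94 at the start site. At the middle site SSA1 went from 2.85 to 3.33 and SSA2 from 2.97 to 3.23. On that measure SSA1 fell against SSA2 at the start site and not at the middle site.

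By normalized tags, SSB1 moved against SSA2 in the opposite sense. At the middle site SSB1 had 1.03 times the tags of SSA2 at 6 h (0.823 to 1.29) and 1.46 times at 12 h (1.19 to 1.80), with a quotient of 1.43 (1.04 to 1.93). In fold over local background SSB1 went there from 3.28 to 3.72 and SSA2 from 2.97 to 3.23. At the start site the quotient was 1.25 (0.978 to 1.60), an interval that spans 1. SSB1 and SSB2 had almost equal tags at their middle sites at 6 h, with a ratio of 0.997 (0.799 to 1.25). At 12 h it was 1.21 (1.00 to 1.47), an interval with its lower end just above 1. The quotient of 1.21 (0.899 to 1.63) was not separable from 1 at this depth. The split of reads between these near copies is uncertain as well.

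**Figure D5:**
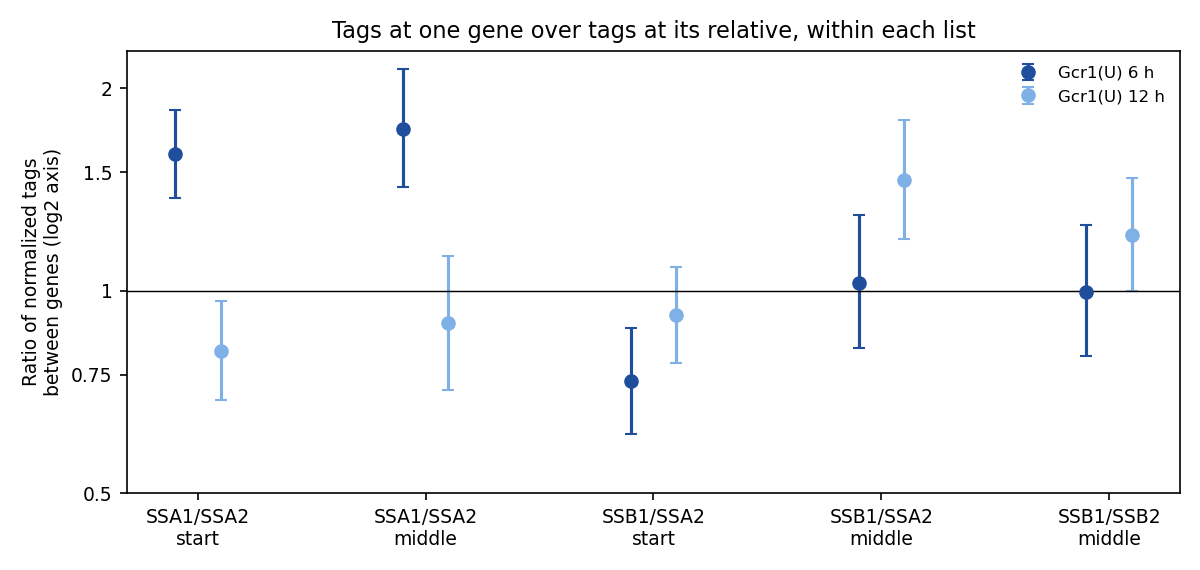
Ratio of normalized tags between genes at the same site (vertical axis, log2 scale) within the list of Gcr1(U) at 6 h and at 12 h, with 95% counting intervals as bars. SSA1 over SSA2 goes from 1.60 to 0.815 at the start site and from 1.74 to 0.896 at the middle site, and SSB1 over SSA2 goes up at both sites.

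At the SSA1 start site the forms could be compared directly. At 6 h Gcr1(S) had 0.655 times the tags of Gcr1(U) (0.553 to 0.770), past the 1.5-fold call, beside 16% of the 162 shared peaks that were lower to that extent and 12.3% that were higher. Per bp of window this ratio was 0.701 and in fold over local background 0.925, neither past that call. At 12 h the ratio was 1.16 (0.931 to 1.45), an interval that spans 1, where past 1.5-fold 30.1% of 163 shared peaks were higher and 50.3% lower. From 6 h to 12 h Gcr1(S) had a ratio of 1.05 (0.835 to 1.32), against a median of 0.595 over its 233 peaks and of 1.27 over its 27 other gene body peaks. Past 1.5-fold, 14.6% of the 233 were higher and 52.8% lower, and the SSA1 start site was neither. The ratio of Gcr1(S) over time was thus 1.77 times that of Gcr1(U) (1.35 to 2.36, counting error only). With each form taken relative to the median of its own peaks this quotient was 3.05, and in fold over local background 1.34.

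The widths of the windows differ between the lists, and the values at this site depend on that and on scaling. Most windows of Gcr1(U) were 182 bp wide at 6 h and 168 bp at 12 h, those of Gcr1(S) 170 bp and 114 bp. Per bp of window the ratio over time in Gcr1(S) was 1.56, and relative to the median of all its peaks it was 1.76. At 12 h the ratio of the forms became 1.71 per bp and 1.76 relative to the median of the shared peaks. The peaks of Gcr1(S) at the 2 times overlapped by 50 bp, which is 43.5% of the narrower window, with centres 93 bp apart.

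Among the other gene body peaks in all 4 lists, the 3 whose tags varied most like those of the SSA1 start site lay in HPF1, YEL008W and FLO5, with root mean square differences of 0.23, 0.24 and 0.26 on the log2 scale among 13 candidates. None of them fell as far in Gcr1(U). HPF1 went from 234.8 to 195.0 tags, YEL008W from 409.9 to 370.3 and FLO5 from 176.8 to 171.1. For the SSA1 middle site, present in 2 lists, the closest of 55 candidates were peaks in EFM4 (0.12), ATS1 (0.17) and FLO9 (0.20). For a place in 2 lists only the ratio over time in Gcr1(U) is compared. Unlike the SSA1 middle site, EFM4 and ATS1 were also listed in Gcr1(S). There they went from 8687.1 to 15418.8 tags and from 1136.8 to 1788 tags. For both places on SSB1 the closest was the SSB2 middle site, with 0.07 for the start and 0.14 for the middle site, followed by a peak in GRS2, a glycyl-tRNA synthetase gene, which went from 233.8 to 303.7 tags. The third closest lay in FLO11 for the start site and in ENO2, an enolase gene, for the middle site. For the start, middle and end sites of SSA2 the closest lay in FLO11, YOR389W and PRM8. FLO11 was followed by YLR462W and SRD1, YOR389W by a pair of peaks in FLO1, and PRM8 by a pair in YNL034W.

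More than 1 peak in a coding region was found at few genes. In Gcr1(U) at 6 h, 10 of the 49 genes with a gene body peak had 2 or more, and 3 had 3, SSA2, FLO1 and FLO9. Besides SSA1, SSA2 and SSB1 the 10 were the flocculin genes FLO1, FLO5 and FLO9, the hexose transporter gene HXT11, and YNL018C, YNL034W and YNR065C. At 12 h the same 10 genes had as many peaks each. In Gcr1(S) 0 of 28 genes at 6 h and 0 of 26 at 12 h had more than 1. The lowest nuclear values listed for Gcr1(S) were 161.1 at 6 h and 169.3 at 12 h. In Gcr1(U) the weakest peak of each of the 10 genes lay at or under these values, except that of SSA1 at 6 h (181.2). These counts therefore show no difference between the forms.

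Among the genes of the chaperone system, those with a peak were cytosolic Hsp70 genes. Outside SSA1, SSA2 and SSB1, 1 of 42 listed genes, SSB2, had a peak in Gcr1(U) and 0 in Gcr1(S), and lists this short give no result about the system. Of all 45 genes in 6 lists of Hsp70 proteins, their partners and heat shock factors, 4 had a peak in Gcr1(U) at each time, 8.89% beside 4.12% of all 6002 nuclear protein-coding genes. These were SSA1, SSA2, SSB1 and SSB2, all of the cytosolic Hsp70 list, in which SSA3 and SSA4 had no peak. In Gcr1(S) SSA1 was the 1 gene with a peak, 2.22% beside 3.48% at 6 h and 3.40% at 12 h. The exchange factors and atypical Hsp70 proteins (0 of 5, SSE1 and FES1 among them), the Hsp70 proteins of organelles (0 of 5, such as KAR2 of the endoplasmic reticulum and SSC1 of mitochondria) and the J-domain partners that stimulate the ATPase (0 of 12, with YDJ1, SIS1 and ZUO1) had none in any list. The same held for other heat shock chaperones (0 of 14, with HSC82, HSP82 and HSP104) and for the heat shock regulators HSF1, MSN2 and MSN4 (0 of 3). The members were picked with these lists in view, so the count for cytosolic Hsp70 genes is a description.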

How the data were processed

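Gcr1 ChIP-seq was measured in 8 samples, 2 per group, with 1 deposited HOMER findPeaks list per form and time, per the file headers. Roles and order of the tools in the submitters' processing notes (BWA 0.7.15, Picard 2.92, bcl2fastq 1.8.2, FastQC 0.10.1, bedtools and HOMER, with build sacCer3) are not stated in the sources used here. Reads came from 1 end, 50 cycles, after 15 cycles of PCR, per the labels' protocols.

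The signal is the authors' normalized tag count, on an assumed scale of 10000000 tags. The deposited findPeaks score ranked peaks. The deposited fold over local background (a ratio), the p-value against it and the focus ratio (a fraction) are the authors' values. The authors' clonal fold change was not used.

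The values lay on steps of 0.5 tags (98.3% to 99.6% of them within 0.05 units of a step, against 11.6% to 30.0% by chance), so 1 unit stood for 1.50 and 1.42 tags in Gcr1(U) and 1.07 and 0.582 in Gcr1(S), at 6 h and 12 h. The search was held within 10% of the median score per unit. Intervals are exact (Clopper-Pearson for a ratio, conditional for a quotient of ratios), at 95%, and take the derived tags as independent counts. They cover counting error only, since the lists hold no value per replicate. Copies made by PCR were not told apart by molecular identifiers, and whether the derived tags are independent was not tested. Both steps were tried on data simulated under these same assumptions, which cannot show that the assumptions hold for the deposited values. The depth of each replicate is unknown.

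Lists were matched by an overlap of 1 bp or more. The lists of each form match peak by peak across the times, so a place kept at 12 h is no second test. Genes came from RefSeq R64, the assembly of sacCer3, with the strand read from the systematic name. The ends of chromosomes were taken as the last gene or peak. Genes named with values besides SSA1, SSA2 and SSB1 are those of the chaperone lists with a peak and, for each member, the 3 gene body peaks with the smallest root mean square difference of centred log2 tags. Listed genes without a peak are named as examples of their lists. EFB1, ATS1, the genes with several peaks and those of high focus ratio were named after their values were seen. The members and lists were chosen with earlier results of these data known. Python 3.11.15, scipy 1.17.1 and pandas 2.3.3 were used.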

Additional observations from a re-analysis of the deposited data

Results flagged for a closer look

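The SSA1 start site is given here because its ratio of 12 h over 6 h lay below 1 in Gcr1(U), at 0.590, and not in Gcr1(S), at 1.05, so the ratio of Gcr1(S) was 1.77 times that of Gcr1(U). With 1 list per form and time this difference was not tested over replicates, and the interval of Gcr1(S) (0.835 to 1.32) spans 1, so no direction is shown for that form. Relative to the median of each form's own peaks the ratios were 0.575 and 1.76, a quotient of 3.05. In fold over local background they were 0.883 and 1.18, a quotient of 1.34. Per bp of window they were 0.639 and 1.56. The windows of Gcr1(S) at 6 h and 12 h overlapped by 50 bp, 43.5% of the narrower, so its ratio compares stretches that differ in part.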

How the results depend on the processing

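Of 69 values under alternatives, 48 kept their direction and size, 20 moved and 1 turned. With fold over local background in place of tags, the Gcr1(U) ratio of 12 h over 6 h turned to 1.17 at the SSA1 middle site and moved to 0.883 at the SSA1 start and 1.13 at the SSB1 middle site, and that of Gcr1(S) over Gcr1(U) at 6 h moved to 0.925 at the SSA1 start site. Centring on the median of all peaks compared moved the SSA1 start site to 1.76 over time in Gcr1(S), to 0.511 between the forms at 6 h and to 1.76 at 12 h. Per bp of window it was 1.56 over time in Gcr1(S) and 1.71 between the forms at 12 h. The cause was not tested. In Gcr1(U) centring and tags per bp left every ratio of SSA1, SSA2 and SSB1 over time inside its counting interval, though per bp the SSB1 start site passed 1.5-fold (1.57).

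Counts of gene body peaks past 1.5-fold moved where a counting interval off 1 was asked for instead. In Gcr1(U) over time 3 higher became 6 and 3 lower became 10. In Gcr1(S) over time 9 higher became 16, or 23 when centred, and 0 lower became 3. Between the forms at 6 h 1 higher became 6, or 0 when centred, and at 12 h 1 lower became 0 when centred. In the upper 50% of each list by score, the chaperone lists had 1 gene with a peak in Gcr1(U) at 6 h (SSA1) and 0 in the other 3 lists. No place on these genes was in the upper 50% of both lists compared, so that setting gave no ratio. With an overlap of at least 50% the peaks of Gcr1(S) on SSA1 at 6 h and 12 h no longer matched, and no value could be had. No paired analysis was possible because the lists hold no value per replicate, and for the same reason no replicate could be left out.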
